A study of Rattus norvegicus with 30 samples.

Results

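Gene expression in rat liver was examined across a 3-step tofu series, to see where the mixed diet fell between all-casein and all-tofu feeding. The series was made of 15 of the 30 arrays of the study, chosen by the diet in their labels, with 5 livers per diet and 1 array per liver. In the casein diet (C), casein supplied 200 g/kg of protein and tofu 0 g/kg. In T10, casein and freeze-dried tofu supplied 100 g/kg of protein each. In T20, freeze-dried tofu supplied 200 g/kg of protein and casein 0 g/kg. All animals were male Sprague-Dawley rats, obtained at 4 weeks of age, given a commercial stock diet for 5 days and then fed the test diet for 14 days. The other 15 arrays came from rats on casein with isoflavones (CI), soy protein (S) and soy protein with isoflavones (SI), and entered the fit only for the estimate of the spread. Tofu brings its own isoflavones, so casein, tofu protein and isoflavones changed together along the series. Their parts in a difference cannot be told apart from C, T10 and T20 alone. CI and SI were supplemented to match T20, but no contrast with them was tested here.

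The liver makes fatty acids from surplus carbohydrate, stores triglyceride in droplets coated by perilipins, and disposes of cholesterol by making bile acids or by pumping sterols into bile through the ABCG5/ABCG8 transporter. Diets with soy protein in place of casein are known to lower blood lipids and hepatic fatty acid synthesis in rats. When a diet component is raised in steps, a gene can follow the dose in proportion, reach its full change at the first step, stay at its starting level until the last step, or be highest or lowest at the middle step. The departure used here, read beside T20 minus C, separates these cases. It is the T10 mean minus the midpoint of the C and T20 means on the log2 intensity scale, so a value of 0 places T10 at the midpoint. For a gene that differs between T20 and C, the share reached is T10 minus C divided by T20 minus C. A share of 0 is the casein level, 0.5 the midpoint and 1 the full tofu level.

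The tissue label fitted the data, since 13 hepatocyte markers, albumin (*Alb*) and transthyretin (*Ttr*) among them, lay at or above percentile 96.7. That percentile was taken among probe sets with a gene symbol, 1 per symbol. Array medians ran from 216.9 to 254.7 in intensity, and precision is limited by having 5 livers per diet. On T10 replicates 3, 4 and 5 the GAPDH control probe sets had a 3' to 5' signal ratio of 1.32 to 1.58, against 0.97 to 1.25 on the other 27 arrays, while the same ratio for actin was 2.35 to 2.43, against 1.84 to 2.89. All 3 arrays belong to T10, and values without them are given beside the results that they moved by over 1.5 times. In bulk liver, fewer cells of a type and less RNA per cell cannot be told apart.

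Departure from the midpoint was rare at this sample size. By limma with Benjamini-Hochberg adjustment, 3 of 18625 probe sets passed an adjusted p of 0.05, which is 0.0161% of those tested. *Fmo1* was above the midpoint in T10 (0.00537% of probe sets passed in that direction), and *Plin3* and *Hectd2* were below it (0.0107%). At an unadjusted p under 0.05 there were 806 probe sets (4.33%), of which 270 (1.45%) were above and 536 (2.88%) below, where 931.2 would be expected from unchanged probe sets. The median departure of all tested probe sets was -0.02. All 3 calls were lost without T10 replicate 4, without T10 replicates 3, 4 and 5 together, and when only the C, T10 and T20 arrays were fitted.

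*Fmo1* encodes a flavin-containing monooxygenase, an enzyme that oxygenates nitrogen and sulfur atoms of foreign and dietary compounds, and it was already at the full tofu level in T10. Its log2 intensities were 10.55, 10.54, 10.69, 10.53 and 10.83 in C livers, 12.10, 12.59, 12.56, 13.16 and 12.94 in T10 livers, and 12.74, 12.40, 12.28, 13.02 and 12.93 in T20 livers. All T10 and all T20 livers lay above all C livers, and T10 and T20 livers overlapped throughout. The T10 mean of 12.67 ± 0.41 (SD, n = 5) stood 1.02 ± 0.15 (SE) above the midpoint of 11.65 (adjusted p = 0.00711 by limma, 95% interval 0.70 to 1.34). The T10 minus C difference was 2.04 ± 0.18, a 4.12-fold higher intensity, and T20 minus T10 was 0.00 ± 0.18 (adjusted p = 0.999 by limma). The call depended on scale: with the midpoint taken on the intensity scale the departure was 0.68 (adjusted p = 0.351). It was 0.90 (adjusted p = 0.0891) without T10 replicate 4, and 0.69 (adjusted p = 0.995) without T10 replicates 3, 4 and 5. Livers on S and SI, without tofu, averaged 12.68 ± 0.18 and 12.67 ± 0.22, and those on CI 10.70 ± 0.41.

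*Plin3*, a perilipin of the droplet coat, had its lowest mean in T10. It measured 10.97, 11.09, 11.19, 11.02 and 10.94 in C livers, 10.38, 9.90, 10.19, 9.82 and 10.18 in T10 livers, and 10.61, 10.59, 10.33, 10.11 and 10.68 in T20 livers. Every tofu-fed liver of both doses was below every C liver, while T10 and T20 livers overlapped. T10 averaged 10.09 ± 0.23 against a midpoint of 10.75, a departure of -0.66 ± 0.11 (adjusted p = 0.0152 by limma, 95% interval -0.89 to -0.43). T20 minus T10 was 0.37 ± 0.13 (adjusted p = 0.507), so a lower level in T10 than in T20 was not shown by that comparison. The departure was -0.61 (adjusted p = 0.12) without T10 replicate 2, -0.59 (adjusted p = 0.139) without T10 replicate 4 and -0.61 (adjusted p = 0.715) without T10 replicates 3, 4 and 5. It also missed the threshold with each array centred on its median (adjusted p = 0.069) and without C replicate 3 and CI replicate 3 (adjusted p = 0.0606).

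*Hectd2*, an E3 ubiquitin ligase, was below both neighbours in every T10 liver. Its values were 7.94, 8.04, 7.70, 7.65 and 7.61 in C livers, 6.50, 7.29, 6.76, 6.62 and 7.18 in T10 livers, and 7.88, 7.83, 7.63, 8.33 and 8.30 in T20 livers. No T10 liver overlapped either neighbour, and C and T20 overlapped. The T10 mean of 6.87 ± 0.35 was 1.02 below the midpoint of 7.89, a departure of -1.02 ± 0.17 (adjusted p = 0.0152 by limma, 95% interval -1.37 to -0.67). T10 minus C was -0.92 ± 0.20 (adjusted p = 0.0314, passing in 9 of 15 repeats with 1 array left out) and T20 minus T10 was 1.13 ± 0.20 (adjusted p = 0.0774). These are dim signals, since the T10 mean lay under the level of 7.388 that the mean over all arrays had to exceed for a test. The call was lost without T10 replicate 1 (adjusted p = 0.146), replicate 3 (adjusted p = 0.0642) or replicate 4 (adjusted p = 0.118), and the departure was -0.999 (adjusted p = 0.715) without T10 replicates 3, 4 and 5.

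**Figure D1:**
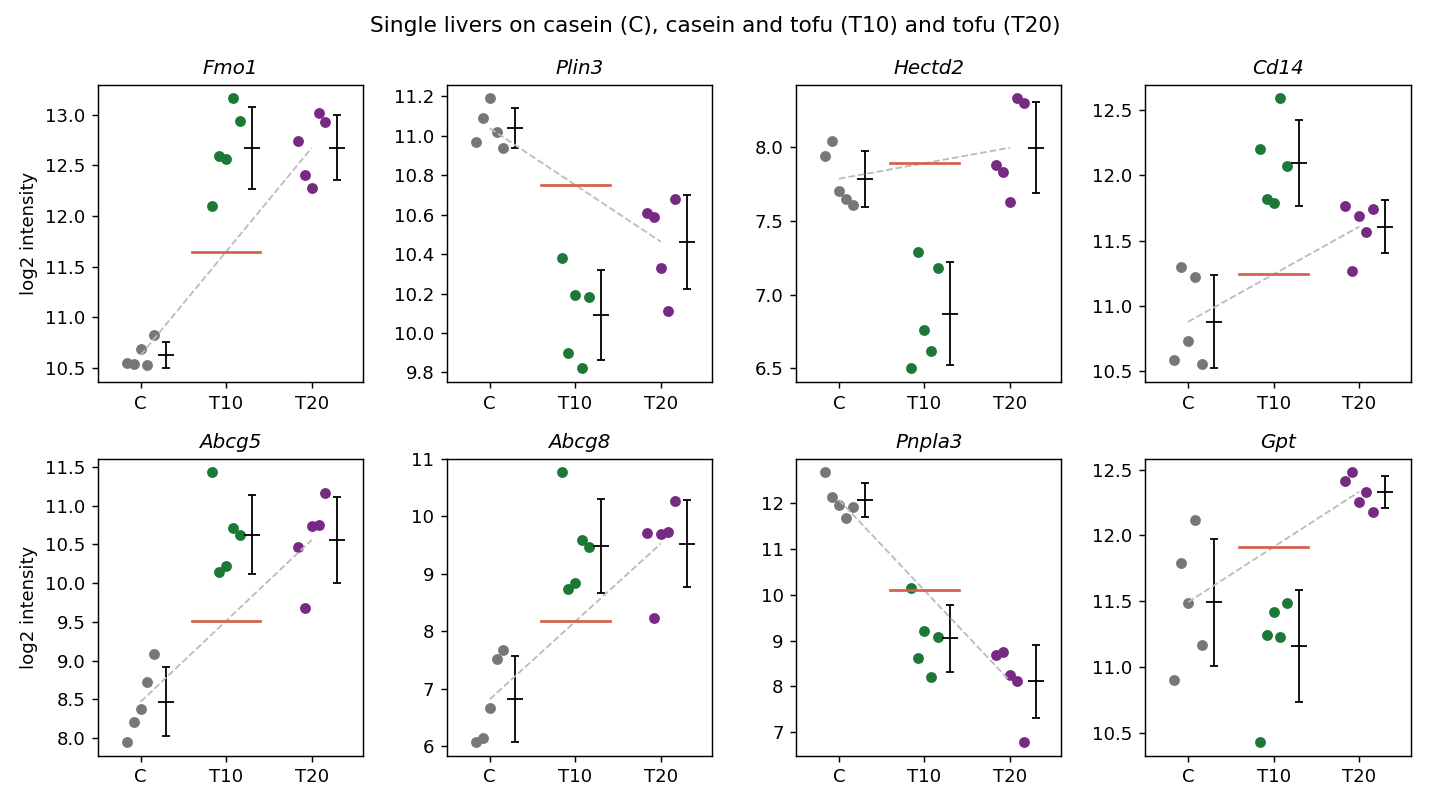
Log2 intensity of 8 genes in single livers (points, ordered by replicate number within a diet) on C, T10 and T20, with the mean and SD of 5 livers at the right of each group. The red line marks the midpoint of C and T20 and the dashed line joins their means; axes differ between genes and do not start at 0. T10 reached the T20 mean for *Fmo1* (12.67 in both diets) and lay below both neighbours for *Hectd2* (6.87, against 7.79 in C and 7.996 in T20).

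The T10 mean lay outside the C and T20 means for 9699 probe sets (52.1%), above both for 3937 (21.1%) and below both for 5762 (30.9%). That imbalance turned round after quantile normalization, with 5304 above and 4406 below. Where the diets do not differ, each of the 3 means is equally likely to lie in the middle. Most unchanged probe sets would therefore also have T10 outside, and the 52.1% does not measure peaks or dips at T10. In 5 probe sets, *Hectd2* among them, every T10 liver lay outside the range of all C and T20 livers. Among 18625 unchanged probe sets some would show this from the draw of livers alone, so the count is not a result about these 5. In 2 of 18625 (0.0107%) all T10 livers were above, and in 3 (0.0161%) all were below. *Cd14*, a co-receptor for bacterial lipopolysaccharide, was of the first kind, with 10.59, 11.30, 10.73, 11.22 and 10.56 in C livers, 12.20, 11.82, 11.79, 12.59 and 12.07 in T10 livers, and 11.77, 11.27, 11.69, 11.57 and 11.74 in T20 livers. Its departure was 0.85 ± 0.18 (adjusted p = 0.171), and T10 minus C was 1.21 ± 0.21 (adjusted p = 0.00366, limma for both). *Cd14* is also a macrophage marker. It was the only 1 of 17 tested macrophage markers at an unadjusted p under 0.05 for the departure, and the summed intensity of the list was 45350 to 50980 in C, 44680 to 62530 in T10 and 45470 to 62100 in T20. The other members of the 5 were *Hectd2*, *Toe1* (departure -0.13 ± 0.07), 1 of 2 tested probe sets of *Kcnc4* (-0.98 ± 0.29, the other -0.00) and 1 of 5 tested probe sets of *Lepr* (1.26 ± 0.46, the others -0.37 to 0.06). The *Lepr* probe set was tested only because it was high in T10, as its mean of 7.45 over all arrays was 7.26 without the T10 arrays, under the filter level of 7.388. *Kcnc4* (a potassium channel) and *Lepr* (the leptin receptor) therefore had probe sets that differed from each other.

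The next genes in line did not pass. *Cnn3*, an actin-binding calponin, measured 11.11 to 11.34 in C livers, 11.66 to 12.13 in T10 livers and 11.35 to 11.92 in T20 livers, with a departure of 0.48 ± 0.10 (adjusted p = 0.102). It passed without T20 replicate 4 (0.52, adjusted p = 0.0305). *Aldh1b1*, a mitochondrial aldehyde dehydrogenase, had a departure of -0.76 ± 0.17 (adjusted p = 0.29) and *Csrp1*, a LIM-domain protein, one of -0.53 ± 0.12 (adjusted p = 0.365). All 5 T10 livers were below the midpoint for both genes. *Thsd7a*, a thrombospondin-repeat protein, had 9.25 to 9.59 in T10 livers against 10.64 to 11.14 in T20 livers with no overlap, but C livers ran from 9.30 to 11.34, and the departure of -1.08 ± 0.30 did not pass (adjusted p = 0.967). *P2ry2*, a nucleotide receptor, and *Mapkapk2*, a kinase below p38, had departures of -0.56 ± 0.15 and -0.36 ± 0.09 (adjusted p = 0.769 and 0.693). *Adk*, adenosine kinase, differed by 0.20 ± 0.05 (adjusted p = 0.956), with all 5 T10 livers above the midpoint. All these values are from limma.

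For most probe sets that passed for T20 minus C, the T10 mean lay between those of C and T20. T20 minus C passed for 839 probe sets (4.5% of those tested), 328 higher (1.76%) and 511 lower (2.74%) in T20. Over these 839, chosen on C and T20 alone, the median share reached in T10 was 0.570, with quartiles of 0.405 and 0.730. The departure and T20 minus C are uncorrelated, so a probe set that passed through noise would have a share scattered around 0.5. A share between 0 and 1 is therefore not in itself a sign of a graded response. The share was at or below 0 for 10, from 0 to 0.25 for 76, from 0.25 to 0.5 for 240, from 0.5 to 0.75 for 323, from 0.75 to 1 for 164 and above 1 for 26. The median was 0.507 for probe sets higher in T20 and 0.595 for those lower. Taken 1 liver at a time, T10 replicates 1 to 5 gave medians of 0.512, 0.606, 0.483, 0.628 and 0.580 (SD 0.062), so the distance from 0.5 was close to the spread between livers. The median was 0.457 without T20 replicate 5 and 0.417 when replicates 4 and 5 of T10 and T20 were left out, on the other side of the midpoint. The number of probe sets passing for T20 minus C was itself 389 without C replicate 3, 517 without C replicate 5, 390 without T20 replicate 1 and 424 without T20 replicate 2.

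Tests of each step found less than the test of the whole range. T10 minus C passed for 60 probe sets (0.322%), 24 higher (0.129%) and 36 lower (0.193%) in T10, and 49 of them were among the 839. T20 minus T10 passed for 0 (0%) by limma, with 1318 (7.08%) at an unadjusted p under 0.05. These comparisons share the C or T20 livers with the 839 and are not independent of them. Of the 839, 77 had a departure at an unadjusted p under 0.05 (9.18%), 60 of them toward T20 and 17 toward C. That balance was 56 and 58 without T20 replicate 5, and 37 and 80 when replicates 4 and 5 of T10 and T20 were left out. The median size of T20 minus C over the 839 was 0.484, so full saturation at T10 would give a departure of 0.242, against a median SE of 0.114. In 1 of the 839 (0.119%), full saturation would have given a departure as large, relative to its SE, as the smallest that passed. A share near the midpoint without a call therefore does not show a straight dose response.

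**Figure D2:**
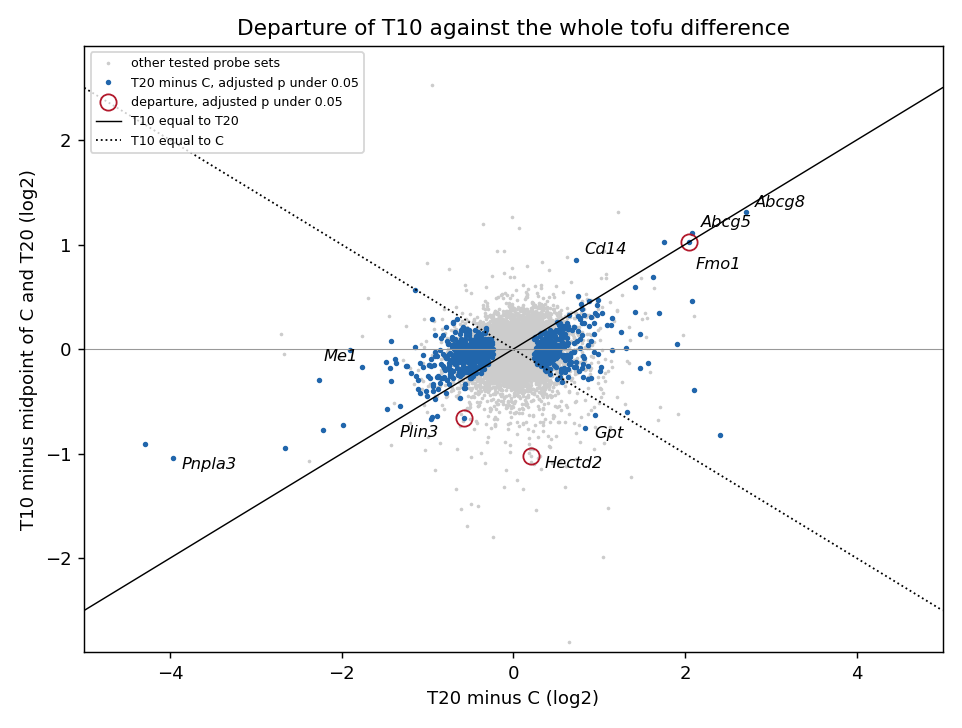
Departure of T10 from the midpoint (log2, vertical) against T20 minus C (log2, horizontal) for 18625 probe sets. Blue points are the 839 that passed for T20 minus C, circles the 3 that passed for the departure; on the solid line T10 equals T20 and on the dotted line T10 equals C. *Fmo1* and *Abcg8* lay on the solid line at 1.02 and 1.31, and *Me1* near 0 at -0.17.

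**Figure D3:**
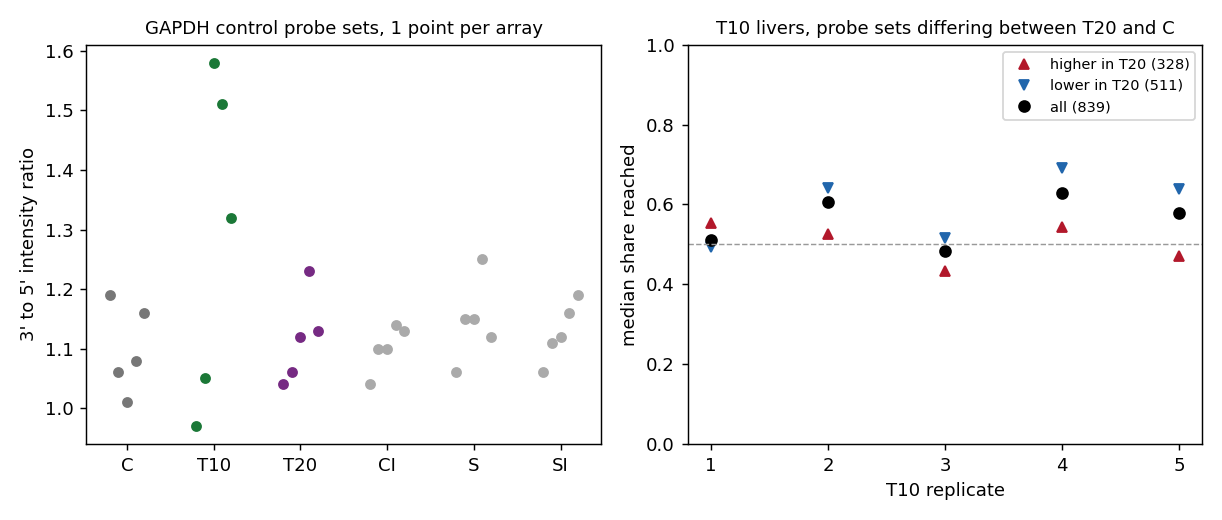
Left, ratio of 3' to 5' intensity of the GAPDH control probe sets on each array by diet; T10 replicates 3 to 5 sat at 1.32 to 1.58 and the other 27 arrays at 0.97 to 1.25. Right, median share reached in each T10 liver for the probe sets higher in T20 (328), lower in T20 (511) and all 839; the medians over all ran from 0.483 to 0.628 around the dashed midpoint.

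*Abcg5* and *Abcg8*, which encode the 2 subunits of the sterol exporter, were at the T20 level in T10. The genes stand head to head on rat chromosome 6, and the whole stretch between their starts is shown because both genes moved together. It is given 5' to 3' on the strand of *Abcg5* from the RefSeq promoter windows of GRCr8 (chr6:15717731-15717935), with *Abcg8* starting on the opposite strand just to its left. Capitals mark the motif AGATAA, which GATA factors are known to bind.
Abcg8-Abcg5 stretch: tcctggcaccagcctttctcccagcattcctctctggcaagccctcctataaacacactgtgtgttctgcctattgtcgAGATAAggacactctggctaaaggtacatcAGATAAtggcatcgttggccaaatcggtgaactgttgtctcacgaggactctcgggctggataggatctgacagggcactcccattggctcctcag
AGATAA occurred 2 times in these 205 bases and in 11.6% of 33469 promoter windows of 300 bases, both strands searched. AGGTCA, a core motif of nuclear receptors (in 16.2% of windows), CACGTG (in 6.42%) and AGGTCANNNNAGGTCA, a direct repeat to which liver X receptors are known to bind (in 0.00598%), were not in the stretch. *Abcg5* measured 7.95, 8.21, 8.38, 8.73 and 9.08 in C livers, 11.43, 10.14, 10.22, 10.71 and 10.62 in T10 livers, and 10.46, 9.68, 10.74, 10.75 and 11.16 in T20 livers. *Abcg8* measured 6.08, 6.14, 6.67, 7.51 and 7.67 in C livers, 10.77, 8.74, 8.84, 9.59 and 9.47 in T10 livers, and 9.72, 8.23, 9.69, 9.73 and 10.27 in T20 livers. No C liver overlapped a T10 or T20 liver for either gene. *Abcg8* is dim off tofu: its mean over the C, CI, S and SI arrays was 7.37, under the filter level, so its C level and the size of its difference are less certain. T10 replicate 1 was the highest and T20 replicate 2 the lowest of the 10 tofu-fed livers for both. T10 minus C was 2.15 ± 0.35 for *Abcg5* (adjusted p = 0.00223) and 2.67 ± 0.42 for *Abcg8* (adjusted p = 0.00142, limma for both). The shares reached were 1.03 and 0.983. The departures of 1.11 ± 0.30 (95% interval 0.49 to 1.73) and 1.31 ± 0.36 did not pass over all probe sets (adjusted p = 0.956 for both). With the midpoint on the intensity scale they were 0.76 and 0.75. Livers on S and SI averaged 9.29 and 9.35 for *Abcg5* and 7.80 and 7.90 for *Abcg8*. These lay between the means of T10 (10.62 and 9.48) and of C (8.47 and 6.82). Livers on CI averaged 8.43 for *Abcg5* and 6.97 for *Abcg8*.

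Other genes among those passing for T20 minus C lay near or past the T20 level in T10, without passing for the departure. They were named by their departures, so shares near or past 1 follow in part from that choice. *Cyp1a2*, a pericentral cytochrome P450, was 13.05 to 13.74 in C livers, 14.12 to 14.52 in T10 livers and 13.67 to 14.59 in T20 livers, a share of 1.17 and a departure of 0.51 ± 0.14 (adjusted p = 0.956). *Hsd11b1*, which regenerates active glucocorticoid, was 13.77 to 14.43 in C livers, 14.57 to 14.93 in T10 livers and 14.71 to 15.13 in T20 livers, a share of 0.925 and a departure of 0.32 ± 0.09 (adjusted p = 0.956). Every tofu-fed liver was above every C liver for *Hsd11b1*. *Ces1d*, a carboxylesterase, had a share of 1.02 and a departure of 0.46 ± 0.14 (adjusted p = 0.9998), again with no C liver overlapping. *Acot4*, a peroxisomal acyl-CoA thioesterase, had the opposite direction, with 11.14 to 12.05 in C livers, 10.10 to 10.75 in T10 livers and 10.21 to 11.17 in T20 livers, a share of 1.22 and a departure of -0.64 ± 0.18 (adjusted p = 0.967). T10 minus C passed for all of these by limma (adjusted p = 0.00821 for *Cyp1a2*, 0.000726 for *Hsd11b1*, 0.0079 for *Ces1d* and 0.0136 for *Acot4*). With each of the 15 arrays left out in turn, T20 minus C passed every time for *Cyp1a2*, *Hsd11b1*, *Ces1d*, *Abcg5* and *Abcg8*, and 12 times for *Acot4*, with adjusted p up to 0.0578 (not without C replicate 1, C replicate 3 or T20 replicate 1). T10 minus C passed 13 times for *Acot4* and 15 for the others.

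Other genes had a T10 mean near or past the casein level, without passing for the departure. They were named as those farthest toward C, so shares near 0 follow in part from that choice. Of the 839 probe sets, 17 had a departure toward C at an unadjusted p under 0.05 by limma. *Gpt*, alanine aminotransferase, measured 10.90, 11.79, 11.49, 12.12 and 11.17 in C livers, 10.43, 11.24, 11.42, 11.23 and 11.49 in T10 livers, and 12.41, 12.48, 12.25, 12.33 and 12.18 in T20 livers. T20 livers stood above all others, and C and T10 livers overlapped. Its share was -0.398 and its departure -0.75 ± 0.19 (adjusted p = 0.769). *Ipo11*, a nuclear import receptor, averaged 9.48 ± 0.23 in C, 9.32 ± 0.21 in T10 and 10.43 ± 0.63 in T20, with a departure of -0.63 ± 0.22 (adjusted p = 0.9998). T20 replicate 5 at 9.35 lay among the C and T10 livers, and the other T20 livers were at 10.58 to 11.02. *Tusc3* (oligosaccharyltransferase subunit) averaged 8.15, 8.16 and 8.70 in C, T10 and T20, and *Tfpi* (tissue factor pathway inhibitor) averaged 8.79, 8.77 and 9.30. *Ube2b* (ubiquitin conjugation) and *Ndufaf8* (complex I assembly) had shares of -0.058 and -0.044. *Asph* (a hydroxylase) and *Ccnt2* (cyclin T2) were lower in T20, with shares of -0.132 and 0.013. A second tested probe set did not bear out the pattern for *Asph*, with means of 9.09, 9.08 and 9.08 in C, T10 and T20, and for *Tfpi* it gave 8.52, 8.73 and 9.18. The departures of these 6 genes were 0.16 to 0.28 in size, none passing (adjusted p = 0.9998 for each by limma). Without T10 replicates 3, 4 and 5 the departure was -0.12 for *Ndufaf8*, -0.34 for *Ube2b* and 0.24 for *Ccnt2*. With 1 array left out in turn, T20 minus C passed 10 of 15 times for *Gpt* (adjusted p up to 0.0876), 7 for *Ipo11* (up to 0.102), 7 for *Asph*, 9 for *Tfpi*, 12 for *Ube2b*, 14 for *Ndufaf8* and *Tusc3*, and 15 for *Ccnt2*. Leaving out T20 replicate 1 ended the call for each of these except *Asph* and *Ccnt2*, and leaving out C replicate 3 for *Gpt*, *Ipo11*, *Asph*, *Tfpi* and *Ube2b*.

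All lipid synthesis genes that passed for T20 minus C were lower in T20. Of 33 tested genes of fatty acid and triglyceride synthesis, 15 passed as lower in T20 than in C and 0 as higher, against 4.86% of all tested genes passing in either direction. For these 15 the share had a median of 0.613 (0.123 to 0.925), and 12 lay past 0.5. Over all probe sets lower in T20, 346 of 511 (67.7%) lay past 0.5 with a median of 0.595. The median departure of the whole list was -0.10, and -0.02 without T10 replicates 3, 4 and 5. None passed for the departure, and *Acacb* (acetyl-CoA carboxylase beta) was the only 1 at an unadjusted p under 0.05, with a departure of -0.40 ± 0.15 (-0.70 without T10 replicates 3, 4 and 5) and a share of 0.925. *Fasn*, fatty acid synthase, measured 14.01, 14.23, 13.51, 13.02 and 13.49 in C livers, 12.82, 11.77, 12.20, 11.20 and 11.69 in T10 livers, and 11.92, 11.99, 12.14, 11.18 and 11.12 in T20 livers. No C liver overlapped a tofu-fed liver, while T10 and T20 overlapped widely. Its share was 0.865 and its departure -0.72 ± 0.40 (95% interval -1.55 to 0.10), or -0.36 ± 0.58 without T10 replicates 3, 4 and 5. *Me1*, malic enzyme, was spaced more evenly, with 12.44 to 13.10 in C livers, 11.13 to 12.00 in T10 livers and 10.76 to 11.28 in T20 livers, a share of 0.595 and a departure of -0.17 ± 0.16 (95% interval -0.50 to 0.16). Without T10 replicates 3, 4 and 5 it was -0.47 ± 0.22. *Acaca* (acetyl-CoA carboxylase alpha), *Acly* (ATP citrate lyase) and *Scd* (stearoyl-CoA desaturase) had shares of 0.665, 0.599 and 0.571. *Scd* differed among T10 livers, at 13.72, 13.40, 13.91, 14.86 and 15.01, of which the last 2 lay within the C range of 14.72 to 15.15. These livers, replicates 4 and 5, had GAPDH ratios of 1.51 and 1.32, while replicate 3, at 13.91, had the highest ratio, 1.58. Without T10 replicates 3, 4 and 5 the departure was -0.71 ± 0.29, against -0.10 ± 0.24 with them. For *Acly* it was 0.13 ± 0.34 without them and -0.14 ± 0.25 with them. *Srebf1*, the lipogenic transcription factor, had a departure of -0.56 ± 0.32 (-0.26 without T10 replicates 3, 4 and 5) and did not pass for T20 minus C (adjusted p = 0.426).

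Of 19 tested genes of lipid droplets and lipolysis, 1 passed as higher and 5 as lower in T20 than in C. Over all tested genes, 4.86% passed in either direction. The median share of those passing in the list was 0.837 (0.712 to 1.65). *Plin3* was the 1 that passed for the departure, and 4 were below the midpoint at an unadjusted p under 0.05, *Pnpla3* and *Ddhd2* among them. Over all tested genes, 4.42% reached that level in either direction. *Pnpla3*, a triglyceride lipase and acyltransferase of the droplet surface, measured 12.68, 12.13, 11.96, 11.68 and 11.93 in C livers, 10.15, 8.61, 9.20, 8.20 and 9.08 in T10 livers, and 8.68, 8.76, 8.24, 8.12 and 6.78 in T20 livers. All tofu-fed livers were below all C livers, and T10 livers reached from above the T20 range into it. Its share was 0.764 and its departure -1.05 ± 0.41 (adjusted p = 0.9998 by limma, 95% interval -1.89 to -0.20). The other 2 tested probe sets gave -0.94 and -0.90. On the intensity scale the departure was -2.12, as a mean of linear values lies nearer the higher group. *Ddhd2*, a phospholipase and triglyceride lipase, had a share of 0.847 and a departure of -0.26 ± 0.12 (-0.46 without T10 replicates 3, 4 and 5).

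No sterol synthesis gene passed, and most had a T10 mean above the midpoint. Of 19 tested genes of cholesterol synthesis and uptake, 0 passed for T20 minus C or for the departure by limma, and 16 had a T10 mean above the midpoint, where 42.5% of all tested genes did. Their median departure was 0.11, against -0.02 over all tested genes, and 0.36 without T10 replicates 3, 4 and 5. The 42.5% and -0.02 hold for the values as deposited. Over all tested probe sets the median departure was 0.008 after quantile normalization and 0.011 after centring. General hepatocyte markers stood alike, with 12 of 13 above the midpoint and a median of 0.10. That median was 0 after quantile normalization (0.13 for the sterol list) and 0.16 without T10 replicates 3, 4 and 5. *Hsd17b7*, a 3-ketosteroid reductase of the pathway, measured 10.13 to 10.51 in C livers, 10.56 to 11.27 in T10 livers and 9.98 to 10.98 in T20 livers (departure 0.38 ± 0.14). *Sqle*, squalene epoxidase, had a departure of 0.41 ± 0.19. These 2 were the members at an unadjusted p under 0.05, and neither passed after adjustment (0.9998 for both). Of 28 genes of sterol efflux and lipoproteins, 5 were above and 1 below the midpoint at that level. Over all tested genes, 4.42% reached it in either direction. *Abcg5* and *Abcg8*, which moved together, were among the 5. So was *Npc2*, a lysosomal cholesterol carrier (0.18 ± 0.07, or 0.28 without T10 replicates 3, 4 and 5). *Cyp7a1*, which starts the main route of bile acid synthesis, was 8.34 to 10.51 in C livers, 8.69 to 10.36 in T10 livers and 9.03 to 13.27 in T20 livers. All 3 groups overlapped, and its departure of -0.62 ± 0.51 did not pass. *Akr1d1*, a bile acid synthesis reductase, had a departure of 0.46 ± 0.14 (adjusted p = 0.9998), with T10 livers at 13.94 to 14.55 and T20 livers at 13.06 to 14.18.

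Among 43 tested genes of xenobiotic metabolism, 6 passed as higher and 1 as lower in T20 than in C, with a median share of 0.923 (0.252 to 1.17). *Fmo1* passed for the departure, and 8 members were above and 0 below the midpoint at an unadjusted p under 0.05. Of all tested genes, 4.42% reached that level in either direction, and 4.86% passed for T20 minus C. *Ces1d*, *Ces1c* and *Ces1e*, members of 1 family whose probes may share sequence, were among the 8. The median departure of the list was 0.13, and 0.07 without T10 replicates 3, 4 and 5. Pericentral hepatocyte markers, which include *Cyp1a2*, were also among the genes higher in T20. Of 14 tested, 5 were higher in T20 than in C, with a median share of 0.715 (0.576 to 1.17), and 0 passed for the departure. Their summed intensity was 122800 to 158200 in C livers, 168600 to 184000 in T10 livers and 156900 to 210100 in T20 livers. Its part in the xenobiotic result was not tested. For periportal markers 0 of 14 passed in either comparison, and 0 were at an unadjusted p under 0.05 for the departure. Of 33 genes of glutathione and the NRF2 response, 0 passed for the departure, and 6 were above and 1 below at that level. *Gstm3* (0.50 ± 0.19) and *Gstm1* (0.22 ± 0.09, or 0.42 without T10 replicates 3, 4 and 5), glutathione transferases of 1 family whose probes may share sequence, were among the 6.

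The cell cycle genes that passed were all lower in T20 than in C. Of 38 tested, 11 passed as lower in T20 and 0 as higher, with a median share of 0.796 (0.465 to 1.20), and 10 of the 11 lay past 0.5, as did 67.7% of all probe sets lower in T20. No member passed for the departure, and 4 were below the midpoint at an unadjusted p under 0.05. Over all tested genes, 4.86% passed for T20 minus C and 4.42% reached that level for the departure, each in either direction. *Ccna2*, cyclin A2, measured 9.03 to 9.57 in C livers, 8.41, 8.94, 7.67, 7.34 and 8.12 in T10 livers, and 7.49 to 8.86 in T20 livers. Its T20 minus C call held in 7 of 15 repeats with 1 array left out (adjusted p up to 0.0914). *Ccnb2*, cyclin B2, measured 10.01 to 10.44 in C livers, 8.81 to 9.60 in T10 livers and 8.60 to 9.55 in T20 livers. The lowest T10 values of both genes came from replicates 3 and 4. Those are arrays with a high GAPDH ratio, and the median departure of the list, -0.17, was 0.11 without T10 replicates 3, 4 and 5. The departure of *Ccna2*, -0.67 ± 0.24, was -0.09 without them, and that of *Ccnb2*, -0.40 ± 0.15, was -0.19.

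Genes of fatty acid oxidation and PPAR-alpha targets included 1 higher and 6 lower in T20 among 41 tested, with a median share of 0.626. Over all tested genes, 4.86% passed for T20 minus C in either direction. The 3 below the midpoint at an unadjusted p under 0.05 were all acyl-CoA thioesterases, *Acot4*, *Acot3* (-0.38 ± 0.13) and *Acot2* (-0.29 ± 0.12), members of 1 family. Over all tested genes, 4.42% reached that level in either direction. *Cpt1a*, the carnitine palmitoyltransferase of mitochondrial fatty acid entry, had a departure of 0.19 ± 0.25. *Fabp2*, an intestinal fatty acid-binding protein, measured 8.66 to 9.57 in C livers, 7.59 to 8.30 in T10 livers and 7.46 to 8.39 in T20 livers, a share of 1.18 and a departure of -0.65 ± 0.19 (adjusted p = 0.996). It was on the list of markers of intestine and kidney, whose summed intensity was 1535 to 1970 in C, 1456 to 1666 in T10 and 1392 to 1978 in T20.

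Of 34 tested genes of the ATF4 amino acid response, 4 were lower in T20 than in C and 0 higher, with shares of 0.335 to 0.591 and a median of 0.367. Among these, 3 lay nearer to C and 1 nearer to T20 in T10. *Slc3a2*, the heavy chain of amino acid exchangers, was the 1 member at an unadjusted p under 0.05 for the departure (0.40 ± 0.13), with 11.20 to 12.25 in C livers, 12.14 to 12.64 in T10 livers and 11.98 to 12.31 in T20 livers. Of 46 genes of amino acid catabolism and the urea cycle, 3 were higher in T20 and 0 lower, with shares of -0.398 (*Gpt*) to 0.715. Of 27 genes of methionine and sulfur metabolism, 4 were higher in T20 and 0 lower, with a median share of 0.647. Over all tested genes, 4.86% passed for T20 minus C in either direction, and 3 of 46 is near that percentage. *Csad*, a taurine synthesis enzyme, was at 12.08 to 12.61 in C livers, 12.70 to 13.39 in T10 livers and 12.66 to 12.99 in T20 livers (departure 0.36 ± 0.13, adjusted p = 0.9998). Every tofu-fed liver was above every C liver, but T20 minus C did not pass (adjusted p = 0.147). The order of lists by share rests on 3 to 15 genes each and was not tested.

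**Figure D4:**
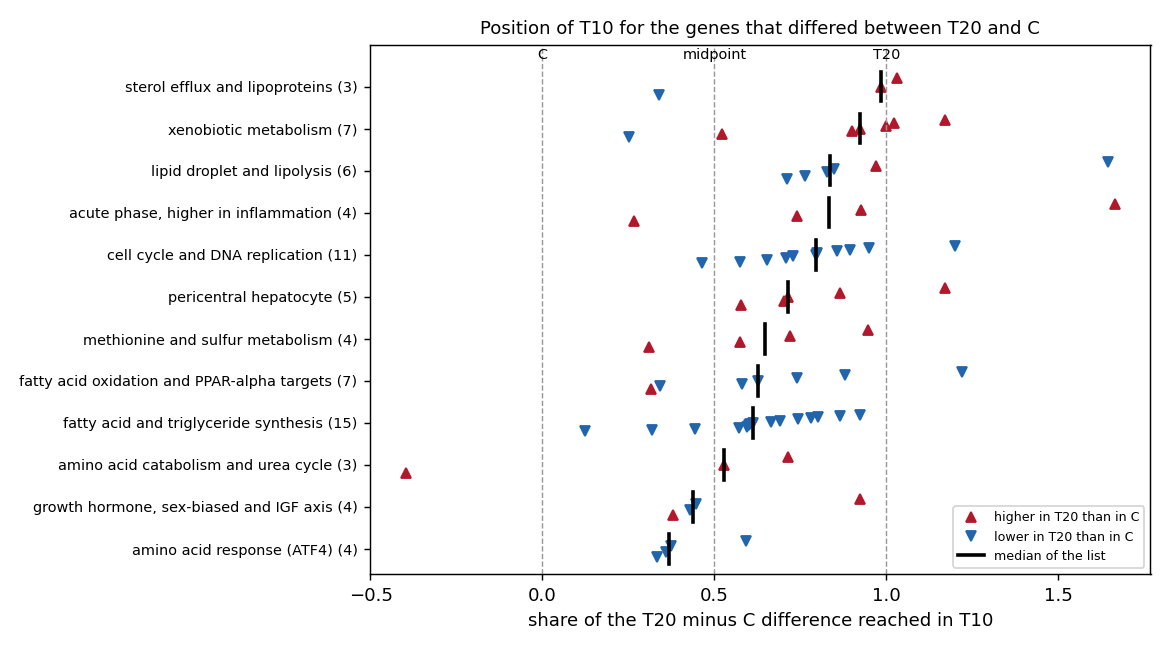
Share of the T20 minus C difference reached in T10 (0 is the C level, 0.5 the midpoint, 1 the T20 level) for genes that passed for T20 minus C, in the lists with at least 3 such genes (number in brackets). Triangles point up for genes higher and down for genes lower in T20, and the bar is the median, which ran from 0.367 for the ATF4 response to 0.983 for sterol efflux and lipoproteins.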

How the data were processed

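Total RNA from each liver was labelled with biotin as cRNA and hybridised to 1 Affymetrix array, per the labels' protocols, and the labels call the arrays of a diet biological replicates. Per the labels, the authors used the SuperNORM data service to normalize the arrays, and they deposited linear intensity values. Their reference level and the genome build are not given in the sources used here. The labels list identical SuperNORM parameters for C replicate 3 and CI replicate 3. Their log2 values correlated at 0.9524, within the 0.9393 to 0.9717 of array pairs, so they are not copies.

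Of 31099 probe sets, 57 controls were left out. The deposited intensities below 16 were set to 16 before log2 was taken, and 143 cells of 48 probe sets were at 0. Probe sets with a mean log2 above the 40th percentile (7.388, intensity 167.6) were tested, which left 18625 for 10699 genes. Symbols came from the platform annotation: 20826 probe sets had 1 symbol, 436 several and 9780 none, 20758 were matched to a current record and 0 changed. A gene was its tested probe set of highest mean.

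All 30 arrays were fitted as 6 diet means with limma 3.58.1 in R 4.3.3 (24 residual degrees of freedom, variance trend, two-sided), adjusted by Benjamini-Hochberg over all tested probe sets at 0.05. The departure and T20 minus C are uncorrelated estimates with 5 livers per diet, but use the same variance. Intervals are at 95%. The fit was tested on simulated data.

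The comparison, the 32 gene lists (776 genes, 616 tested) and a fixed gene list (12 tested) were chosen with earlier results of these data known. The genes named were the 12 of smallest departure p per direction where fewer than 3 passed, the 8 farthest toward T20 and toward C among those passing for T20 minus C, the fixed genes, up to 3 per list by departure p, and those with no overlap; some of these are counted and not named. Alternatives varied scaling, filter, floor, fit and arrays. Sequences are from RefSeq tables of GRCr8. Plots used matplotlib 3.10.9 and Python 3.11.15.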

Additional observations from a re-analysis of the deposited data

Results flagged for a closer look

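In 9 of 159 groups of 5 livers (53 named genes or probe sets, 3 diets) 1 liver stood apart, with a gap to its nearest neighbour above 0.71 of the group's range; chance does this in about 1 group in 20. T10 replicate 1 was low for *Gpt* at 10.43 (the others 11.23 to 11.49). T10 replicate 3 was high for *Tfpi* at 9.18 (8.61 to 8.71) and for the non-overlapping *Lepr* probe set at 9.07 (8.16 to 8.41). T20 replicate 2 was low for *Abcg8* at 8.23 (9.69 to 10.27). T20 replicate 4 was high for *Toe1* at 8.63 (8.36 to 8.39) and for *Thsd7a* at 11.14 (10.64 to 10.75). T20 replicate 5 was low for *Ipo11* at 9.35 (10.58 to 11.02) and high for *Cpt1a* at 14.16 (12.77 to 13.11). C replicate 2 was high for *Ndufaf8* at 10.75 (10.26 to 10.38).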

How the results depend on the processing

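The number of probe sets passing for the departure, 3, was 0 with only the C, T10 and T20 arrays fitted, 0 without T10 replicates 3, 4 and 5, 1 without replicates 4 and 5 of T10 and T20 (*Cnn3*, in place of the 3), 1 at a threshold of 0.01, and 0 to 4 with 1 array left out, the 0 being without T10 replicate 4. The 839 passing for T20 minus C were 421 with only 3 diets fitted, 216 at a threshold of 0.01, 383 without C replicate 3 and CI replicate 3, 1441 without replicates 4 and 5 of T10 and T20, and 389 to 1029 with 1 array left out. The median share of 0.570 was 0.417 without replicates 4 and 5 of T10 and T20 and 0.457 to 0.607 with 1 array left out. The T10 mean lay outside the C and T20 means for 9699 probe sets, 17290 without a filter, 6236 with a 60th percentile filter and 9404 to 10790 with 1 array left out. Scaling changed the split of these: 3937 above and 5762 below as deposited, 5304 and 4406 after quantile normalization, 5374 and 4152 after centring, 4777 and 4391 with equal spread. For T20 minus C it was 328 higher and 511 lower as deposited, 382 and 476 after quantile normalization, 183 and 523 after centring, 830 and 398 with equal spread. The replicate number as a block left 3 departures and gave 1120 for T20 minus C. Deviations of same-numbered arrays of different diets correlated at -0.155 to 0.114 for C and T10, 0.00988 to 0.0933 for C and T20 and 0.0122 to 0.35 for T10 and T20. The medians of these were -0.0587, 0.0556 and 0.0572, against -0.0161, -0.00637 and -0.0712 for arrays of different number. The labels give no shared litter or day, and the numbers were not taken to pair the arrays. All same-numbered pairs of T20 with C or with T10 were positive, so the correlations do not settle whether the numbers pair arrays. Pairing by number was not tested. The departure of *Acly* (-0.14) was 0.13 without T10 replicates 3, 4 and 5, 0.019 without replicates 4 and 5 of T10 and T20, and -0.29 to 0.05 with 1 array left out (0.046 without T10 replicate 5); that of *Scd* (-0.10) was -0.71 without T10 replicates 3, 4 and 5 and -0.30 to 0.10 with 1 array left out. The cause of these changes was not tested, other than fewer samples or probe sets where an alternative leaves them out. Signal over background limits *Hectd2*, *Abcg8*, *Acacb* and the named probe sets of *Kcnc4* and *Lepr*, not tested with the 60th percentile filter.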
